A study of Mus musculus with 6 samples.

Results

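The glycolysis and hypoxia genes were 31 named genes of the 31053 that the count tables list: 17 of glucose uptake, glycolysis and lactate handling, and 14 that regulate or answer to low oxygen. They were chosen by name, and each was matched by its gene symbol; 1 of them, Aldoa, carried 2 gene identifiers, of which ENSMUSG00000030695 was used. Their levels were read in cells of 6 single-cell libraries, 1 each from sham, infarct and peri-infarct tissue of heart and brain. The series title asks whether pericytes, the cells wrapped around capillaries, mount a similar fibrotic response in both organs.

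All groups were mice of genotype Tbx18CreER/+;Rosa26tdT/+, controls included, given tamoxifen into the abdomen for 4 days and then left for a week before use. Tamoxifen lets the Cre recombinase of Tbx18-expressing cells switch on the red fluorescent protein tdTomato (tdT), and cells were sorted for tdT before 3′ droplet sequencing. The heart sham library came from ventricles after Sham Surgery, the heart infarct library from the infarct area of the left ventricle after LAD Ligation (tying of the left anterior descending coronary artery), and the heart peri-infarct library from the area around it, without atria. In the brain, cortical tissue was taken after Sham Surgery and after PT Stroke (photothrombosis, a vessel clot induced by light), there as the necrotic core and as the area around it. Heart was digested with collagenase and dispase and brain with another enzyme kit, so no level is compared between organs by a call. The labels give no time after injury, age or number of animals. Each group is 1 library, so no difference below has a replicate check, no p-value can be given, and every interval covers counting error within these libraries only.

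The libraries held 11796570 to 107892408 UMIs (unique molecular identifiers, 1 per captured transcript). After filtering 36808 cells of 44766 barcodes were used, and the median cell had 1408 UMIs in heart sham and 26159 in brain infarct. Of 43988 distinct barcodes, 486 (1.10%) occurred in more than 1 library. Cells were gated by fixed marker genes, none of them among the 31, and the class names describe transcripts, not lineage. Despite the sort, markers of fibroblast-like, endothelial-like, macrophage-like, mesothelial-like (heart) and arachnoid-like (brain) cells defined classes beside pericyte-like and smooth-muscle-like cells. Free RNA was estimated from fibroblast markers read in endothelial-like cells (heart) or pericyte markers read in fibroblast-like cells (brain). The estimate was 48.9% of UMIs in heart sham, against 11.1% and 8.85% in heart infarct and peri-infarct. In brain sham, infarct and peri-infarct it was 22.1%, 12.1% and 18.3%. It takes free RNA to mirror the whole library and the gated cells to hold none of these markers. It counts misgated cells as free RNA and can be too high. Heart sham classes often lay outside clusters of their own name. Of the 783 pericyte-like cells, 3.96% lay in clusters named pericyte, against 90.6% in infarct and 83.1% in peri-infarct, and their summed fibroblast markers reached 22513 CPM (counts per 1000000 UMIs of the class), against 6068 and 5721. The mesothelial-like (0.210%) and endothelial-like (11.9%) sham cells also lay mostly outside clusters of their own name. The arachnoid-like class had at most 1 of its own markers among its 10 leading genes, so that name is doubtful.

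Glycolysis splits glucose into pyruvate in the cytosol, and lactate dehydrogenase turns pyruvate into lactate when mitochondria do not take it up. When oxygen is short, prolyl hydroxylases no longer mark the hypoxia-inducible factor (HIF) subunits HIF-1α, encoded by Hif1a, and HIF-2α, encoded by Epas1, for destruction. The stabilised subunits pair with ARNT and bind short DNA elements near genes of glycolysis, vessel tone and cell survival. Because HIF is controlled at the protein level, the mRNA of Hif1a or Epas1 does not report HIF activity. HIF-2α is best known in endothelium and pericytes, and brain endothelium is known for its glucose transporter GLUT1, encoded by Slc2a1.

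The core of the HIF binding element is ACGTG or GCGTG, and promoters carrying it are shown for 3 members that were higher and 3 that were lower in the infarct against sham comparison of brain fibroblast-like cells, described further on, and were chosen after their values were seen. RefSeq promoters of build GRCm38.p6, 250 bases before to 50 after a gene's start, were matched for 27 of the 31 members (the promoter nearest the annotated start where there were several), and Ndrg1, Epas1, Hmox1 and Ero1l had no entry. Both strands were searched, and overlapping matches were counted once. At least 1 core occurred in 22 of the 27 members' promoters (81.5%), 12 of 17 glycolytic and 10 of 10 hypoxia genes, against 14380 of 32851 promoters of the same length (43.8%). A match describes letters, not binding. The hypoxia members were chosen as genes that regulate or answer to low oxygen, and several glycolytic members are known HIF targets. Neither share, nor the joint 81.5%, is therefore independent of the choice of genes. The set of all promoters holds more than 1 for some genes, while each member gave 1. The 6 promoters below run 5′ to 3′ on the gene's strand with the cores in capitals, for Gapdh at chr6:125165724-125166023 (minus strand, 3 cores), Pgk1 at chrX:106186850-106187149 (plus, 2), Ldha at chr7:46845554-46845853 (plus, 5), Pdk1 at chr2:71872974-71873273 (plus, 2), Adm at chr7:110627407-110627706 (plus, 2) and Ddit4 at chr10:59951721-59952020 (minus, 2).
Gapdh: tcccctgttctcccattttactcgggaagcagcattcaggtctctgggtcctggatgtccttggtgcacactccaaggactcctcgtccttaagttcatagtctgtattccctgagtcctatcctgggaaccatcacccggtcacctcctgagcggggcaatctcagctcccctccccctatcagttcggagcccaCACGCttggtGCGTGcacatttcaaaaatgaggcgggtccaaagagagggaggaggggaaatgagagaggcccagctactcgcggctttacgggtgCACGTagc
Pgk1: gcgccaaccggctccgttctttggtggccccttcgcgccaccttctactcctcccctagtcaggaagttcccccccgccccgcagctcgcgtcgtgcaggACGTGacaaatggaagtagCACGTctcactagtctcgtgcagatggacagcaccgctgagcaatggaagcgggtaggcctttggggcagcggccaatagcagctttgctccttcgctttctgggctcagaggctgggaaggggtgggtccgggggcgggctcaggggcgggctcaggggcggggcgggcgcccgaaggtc
Ldha: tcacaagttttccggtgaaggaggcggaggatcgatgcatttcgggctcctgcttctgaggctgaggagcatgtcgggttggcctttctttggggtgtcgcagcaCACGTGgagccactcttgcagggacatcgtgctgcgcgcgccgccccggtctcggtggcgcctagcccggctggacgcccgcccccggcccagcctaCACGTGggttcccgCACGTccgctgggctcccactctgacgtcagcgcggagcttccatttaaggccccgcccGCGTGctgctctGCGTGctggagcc
Pdk1: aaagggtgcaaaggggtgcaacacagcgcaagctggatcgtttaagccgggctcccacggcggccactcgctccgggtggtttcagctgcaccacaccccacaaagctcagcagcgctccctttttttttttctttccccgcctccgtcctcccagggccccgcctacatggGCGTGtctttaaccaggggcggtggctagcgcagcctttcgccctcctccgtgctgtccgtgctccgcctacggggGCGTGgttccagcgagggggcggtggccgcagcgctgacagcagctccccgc
Adm: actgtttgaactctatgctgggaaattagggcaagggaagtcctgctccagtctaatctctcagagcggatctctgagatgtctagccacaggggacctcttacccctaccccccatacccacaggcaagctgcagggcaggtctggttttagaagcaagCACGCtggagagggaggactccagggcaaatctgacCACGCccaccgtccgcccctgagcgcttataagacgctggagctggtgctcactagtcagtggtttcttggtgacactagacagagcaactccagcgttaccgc
Ddit4: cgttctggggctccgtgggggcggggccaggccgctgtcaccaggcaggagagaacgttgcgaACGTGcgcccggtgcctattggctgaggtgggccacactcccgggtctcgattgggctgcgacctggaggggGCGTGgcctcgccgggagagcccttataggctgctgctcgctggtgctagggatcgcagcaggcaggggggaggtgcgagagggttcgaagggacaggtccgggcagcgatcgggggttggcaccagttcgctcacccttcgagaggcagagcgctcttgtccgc

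Promoters of genes on either side of that comparison held cores. The matched promoter of Pkm, a gene called higher there, held 0, while its other promoter held 2. The promoters of the lactate exporter gene Slc16a3 and of the prolyl hydroxylase gene Egln3 held 2 and 1 cores.

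**Figure D1:**
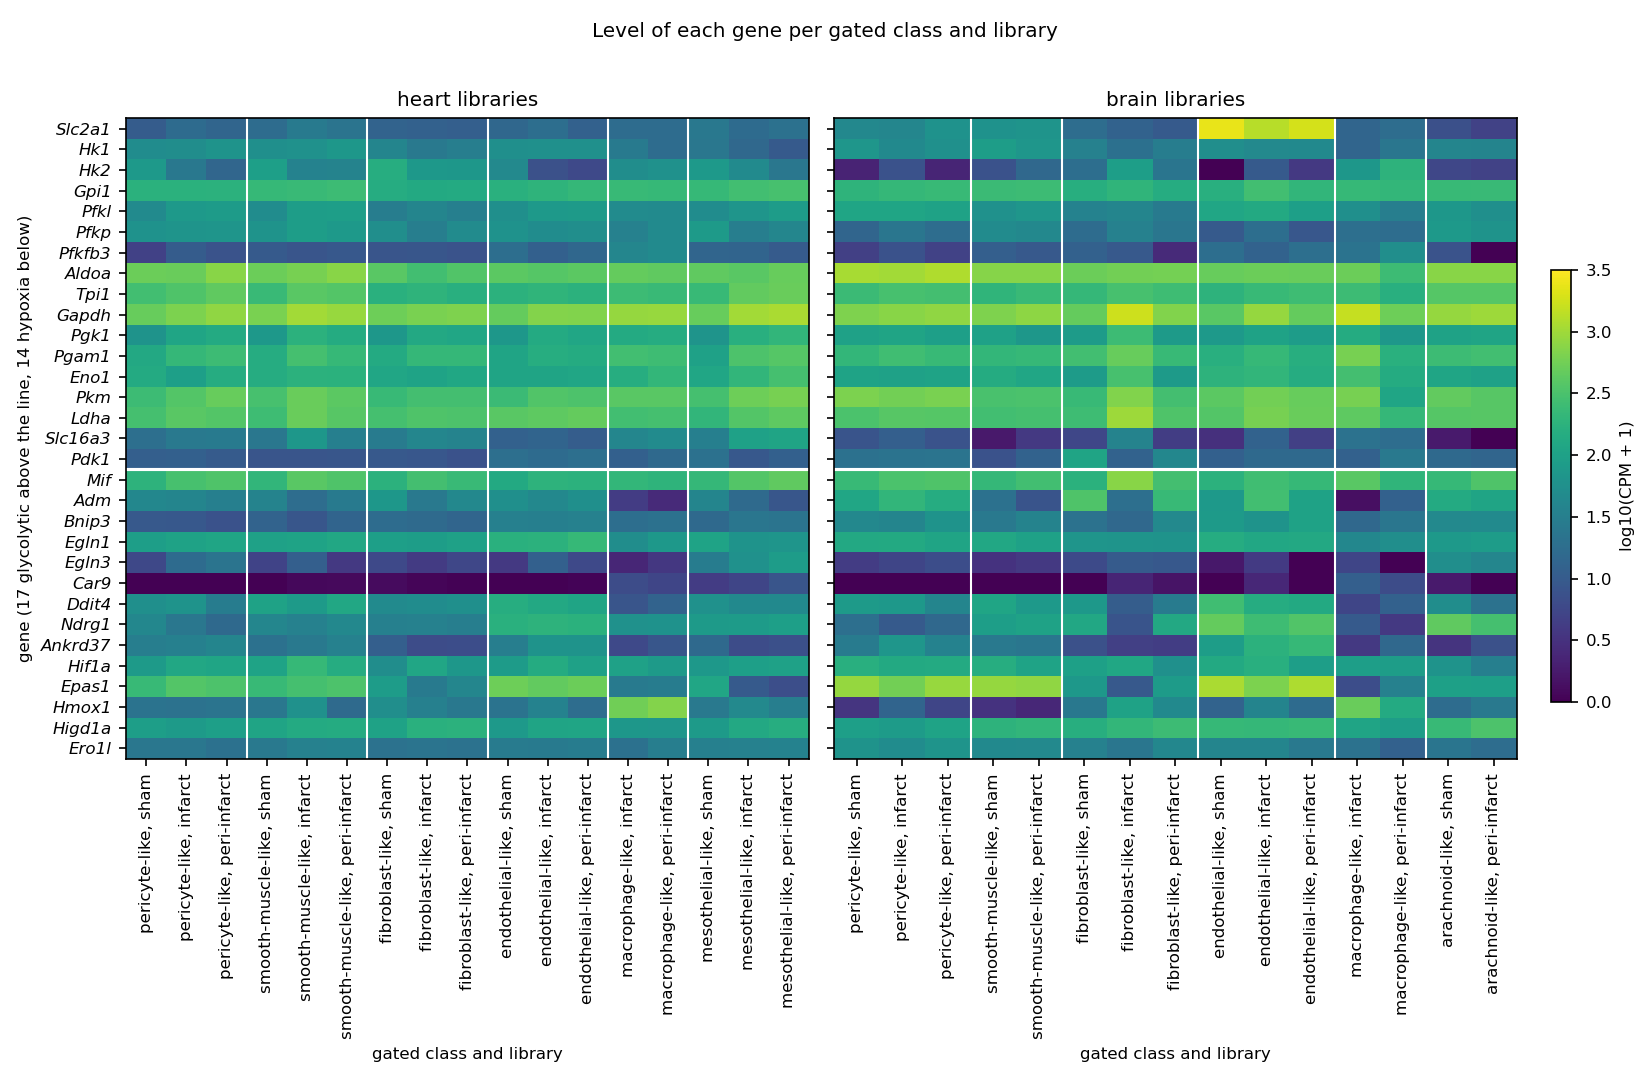
Levels of the 31 genes as log10(CPM + 1), with genes in rows (17 glycolytic above the line, 14 hypoxia genes below) and each gated class of each library in columns, heart on the left and brain on the right. Gapdh, Aldoa and Ldha are bright throughout, Car9 is dark throughout, and Slc2a1 is bright in the brain endothelial-like columns alone.

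Levels of the glycolytic genes differed widely among steps. Over 32 combinations of class and library with at least 50 cells each, Gapdh (glyceraldehyde-3-phosphate dehydrogenase) ranged from 399 to 1701 CPM, Aldoa (aldolase) from 252 to 1223 and Ldha (lactate dehydrogenase A) from 198 to 959. A 3′ library counts each captured transcript once, so these levels do not grow with transcript length. Gapdh, Aldoa and Eno1 have near-identical copies in the genome, and how reads were shared with those copies is uncertain. Gpi1 (glucose-6-phosphate isomerase) ranged from 134 to 297, Tpi1 (triosephosphate isomerase) 159 to 506, Pgam1 (phosphoglycerate mutase) 100.2 to 598, Pfkl (phosphofructokinase, liver type) 26.0 to 132 and Hk1 (hexokinase 1) 8.75 to 86.4 CPM. Pfkfb3, which makes the activator of phosphofructokinase, was low, from 0 to 53.2 CPM, with its highest level in macrophage-like cells of brain peri-infarct.

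Slc2a1 was highest in brain endothelial-like cells. There it stood at 2408 (2330.1 to 2488) CPM in sham, 1335 (1250.2 to 1424) in the infarct and 1869.8 (1799 to 1943) in peri-infarct. Brain pericyte-like cells had 42.4, 39.1 and 60.2 CPM in the same order, and brain fibroblast-like cells 16.9, 11.5 and 8.68. After thinning each cell to 1000 UMIs, 87.7% (83.9 to 90.9) of sham endothelial-like cells had a UMI of it, against 3.12% (2.26 to 4.20) of pericyte-like and 2.87% (1.16 to 5.82) of fibroblast-like cells. The pericyte-like share is no higher than the fibroblast-like one beyond counting error. The level that free RNA alone would give, 80.9 CPM in sham, exceeds the pericyte-like level but also the fibroblast-like 16.9 CPM. That estimate is therefore too high for this gene, and it cannot set a background for pericyte-like cells. By share alone, Slc2a1 in sham pericyte-like cells was not distinguishable from that in fibroblast-like cells. By summed level it was higher in pericyte-like cells, at 42.4 against 16.9 CPM, so share and level gave different answers. In infarct and peri-infarct the estimate was 3.73 and 49.9 CPM, below the pericyte-like 39.1 (29.3 to 51.1) and 60.2 (50.6 to 71.2). In peri-infarct it again exceeded the fibroblast-like 8.68 CPM. Heart classes held 9.39 to 25.4 CPM of it, with 13.9, 17.4 and 11.4 in sham, infarct and peri-infarct endothelial-like cells, and it was not called in an injured against sham comparison of any class where it reached the level for a test.

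Which of these genes differ between injured and sham tissue was asked within a class. A gene was tested at a mean of 20 CPM or more across the libraries compared, and called where (CPM + 1) differed 2-fold or more and the 95% counting interval of the CPM ratio excluded 1. Fibroblast-like cells of the brain infarct gave the most calls among the pericyte-like, smooth-muscle-like and fibroblast-like classes: 10 members higher and 5 lower than in sham, of 25 tested, where 11.1% of all tested genes were called higher and 30.9% lower. Among glycolytic members 8 of 15 tested were higher and 1 lower, with a median log2 ratio of 1.02. Of the hypoxia members 2 of 10 tested were higher and 4 lower, with a median of -0.28. The median over all 6456 tested genes was -0.41.

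Of the late steps, Gapdh, Pgk1, Eno1, Pkm and Ldha were called higher, and Pgam1 (log2 ratio 0.82) was not. Ldha stood at 258 (233 to 284) CPM in sham, 959 (949 to 968) in the infarct and 339 (313 to 367) in peri-infarct in brain fibroblast-like cells, and was 3.71-fold higher in infarct than in sham (interval 3.37 to 4.12). Gapdh, with 469.9, 1701 and 690.3 CPM in sham, infarct and peri-infarct, was 3.61-fold higher (3.36 to 3.90). For both genes the infarct library was high, while peri-infarct lay nearer to sham. Eno1 (enolase 1) had 83.1, 300.4 and 79.8 CPM and Pgk1 (phosphoglycerate kinase) 81.8, 249.7 and 78.7, in the same order, with log2 ratios of 1.84 and 1.60 for infarct against sham. Pkm (pyruvate kinase) had 225, 678 and 280.0 CPM and a log2 ratio of 1.59. At the entry to the pathway, Hk2 (hexokinase 2, the inducible form) rose from 17.5 to 91.3 CPM, with 22.2 in peri-infarct, a ratio of 4.98-fold (3.58 to 7.92). At the exit, Slc16a3, the lactate exporter MCT4, stood at 4.54 CPM in sham, 35.7 in the infarct and 3.26 in peri-infarct, 6.63-fold higher in infarct (3.81 to 19.6), with 7 UMIs in sham. With a stricter gate, cells weighted equally, cluster-defined cells or dividing cells left out its log2 ratio was 2.68, 2.73, 3.48 and 2.57, but its mean CPM fell under the level for a test. Pfkp (phosphofructokinase, platelet type) crossed the threshold narrowly, with 16.2, 34.0 and 22.8 CPM and 2.03-fold, and its log2 ratio was -0.23 when cells came from clusters in place of the gate.

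Called lower were Pdk1, Adm, Ndrg1, Ddit4 and Epas1, the last described with the HIF subunits. Pdk1, the kinase that shuts pyruvate dehydrogenase and a HIF target, fell from 110.3 CPM in sham to 11.5 in infarct, with 40.7 in peri-infarct (log2 ratio for infarct -3.15). Adm, which encodes the vasodilator peptide adrenomedullin, fell from 346 (317 to 377) to 17.7 (16.4 to 19.0) CPM, 18.6-fold lower, and was at 230.1 in peri-infarct. Both infarct levels lay below either of the other libraries. Free RNA would give 31.9, 3.65 and 30.5 CPM of Adm in the 3 libraries and 6.46, 1.44 and 3.85 of Pdk1, less than the fibroblast-like levels in each. Ndrg1, a stress-induced gene, had 124, 7.07 and 128 CPM and a log2 ratio of -3.95. Ddit4, which encodes the mTORC1 inhibitor REDD1, had 72.0, 9.88 and 27.7 CPM and -2.75. Hmox1 (heme oxygenase 1, also a target of the oxidative stress factor NRF2) and Mif (a cytokine) were the hypoxia members called higher. Hmox1 had 24.0, 102 and 45.0 CPM and was 4.13-fold higher (3.08 to 6.05), and Mif had 170.1, 751 and 281 CPM and was 4.39-fold higher (3.91 to 5.0). Known HIF targets thus stood on both sides: Ldha, Pgk1, Slc16a3 and Hk2 higher, Adm, Pdk1, Ndrg1 and Ddit4 lower.

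**Figure D2:**
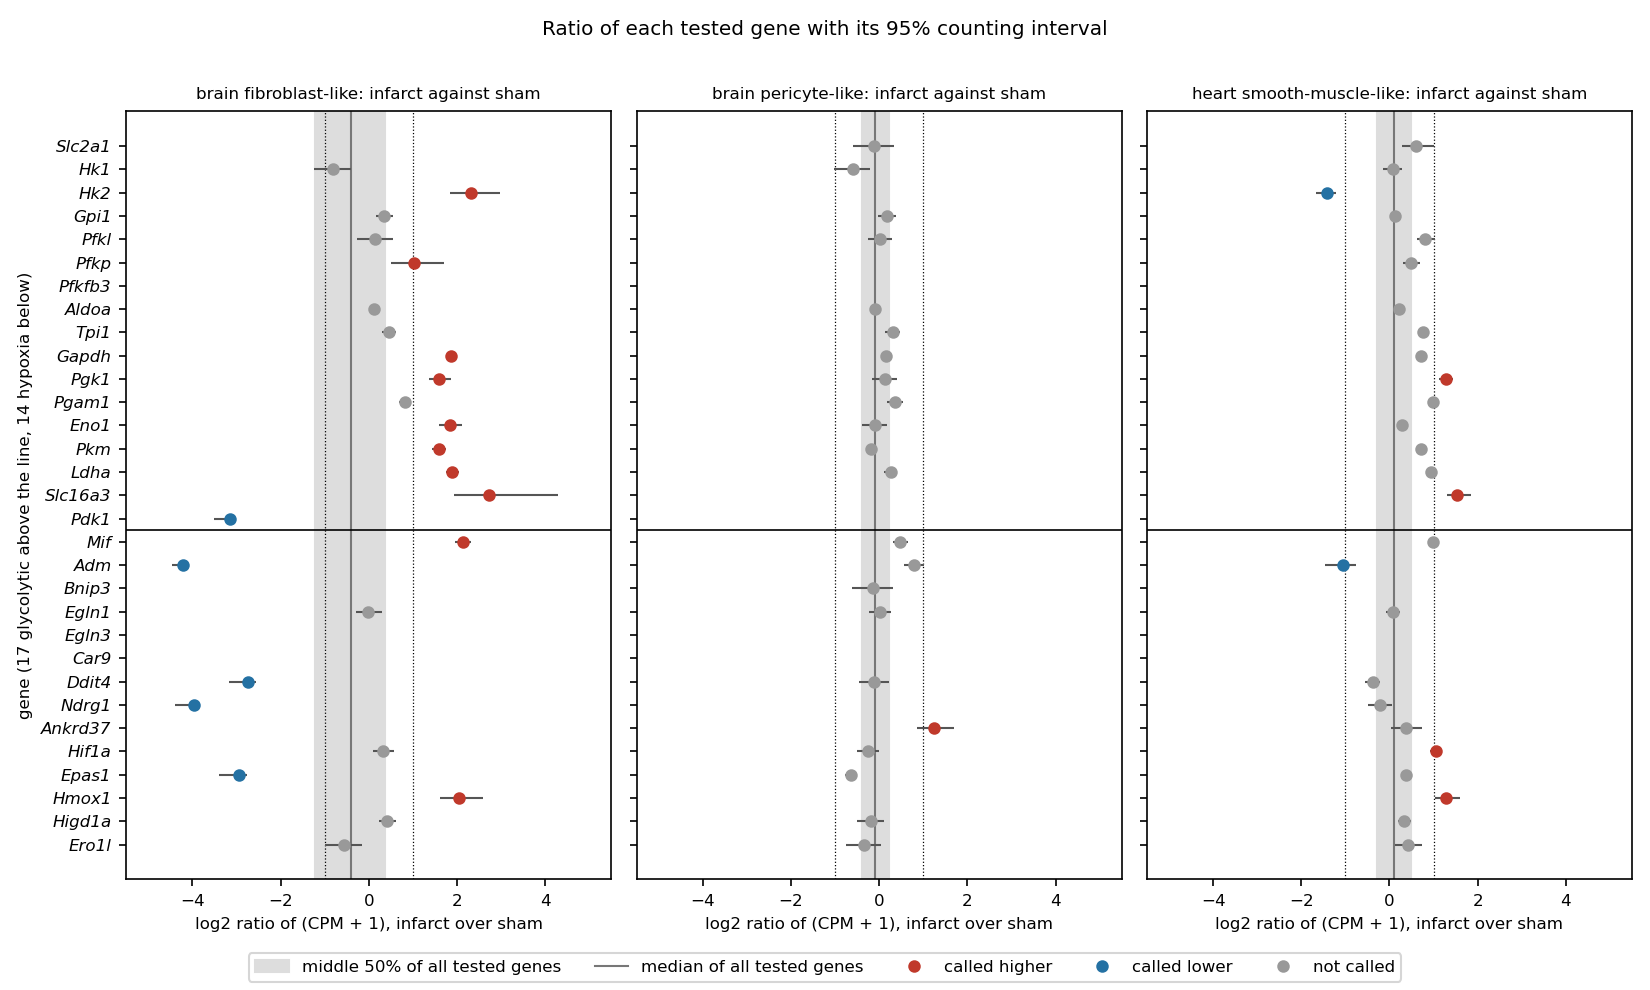
Log2 ratio of (CPM + 1), infarct over sham, for each tested gene in brain fibroblast-like (left), brain pericyte-like (middle) and heart smooth-muscle-like cells (right); points are ratios, lines the 95% counting interval of the CPM ratio, grey bands the middle 50% of all tested genes, dotted lines 2-fold. In the left panel 10 genes lie at or beyond 2-fold on the right and 5 on the left, and in the middle panel 1 gene does.

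The brain fibroblast-like cells of sham and infarct differed in more than these genes. Their numbers were 249 in sham, 1176 in the infarct and 230 in peri-infarct, with median UMIs per cell of 5019, 35042 and 5651. Different clusters held the class: cluster 8 held 63.9% of it in sham, and clusters 3, 7 and 6 held 38.8%, 24.7% and 20.5% in infarct. Col1a1, a collagen chain used in the gate, was at 1936, 7633 and 2381 CPM, Acta2 (smooth muscle actin) at 9.74, 944 and 17.9, and 6 cell division genes summed to 9.74, 673 and 46.1. Summed pericyte markers, which also set the estimate of free RNA in the brain, went from 3255 CPM in sham to 141 in infarct and 1867 in peri-infarct, and Malat1, a nuclear RNA, from 4.90% to 0.668% and 2.64% of UMIs. Summed macrophage markers were at 31.2 CPM in sham and 36.1 in infarct. The part of depth, cell subtype, pericyte RNA and nuclear RNA in the result was not tested. Without the dividing cells Pfkp (log2 ratio 0.90) and Slc16a3 (2.57, under the level for a test) were no longer called. With each cell thinned to 1000 UMIs all calls were kept. Slc2a1 (-1.83), Hk1 (-1.52) and Ero1l (-1.28) were then called lower as well.

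The scaling of the totals mattered here. With edgeR's TMM factors the median of all genes moved by 0.825 to 0.417, 31% of genes were called higher and 12.3% lower, and 15 members were higher and 5 lower. The 15 called members kept their directions. Set against the median of all genes, the log2 ratios were 3.14 for Slc16a3, 2.73 for Hk2, 2.30 for Ldha and 2.26 for Gapdh, and -3.81 for Adm, -3.54 for Ndrg1 and -2.75 for Pdk1.

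Around the brain infarct, fibroblast-like cells gave fewer calls against sham. Bnip3, a mitophagy receptor and HIF target, was called higher (though 0.55 with thinned and 0.58 with cluster-defined cells), with 20.1, 14 and 42.9 CPM in sham, infarct and peri-infarct (log2 ratio 1.05 for peri-infarct against sham). Pdk1 (-1.42) and Ddit4 (-1.35) were called lower, of 23 members tested, where 1.89% of all tested genes were called higher and 7.37% lower. Medians were -0.06 for glycolytic and 0.20 for hypoxia members, and -0.20 for all genes. Set directly against peri-infarct, the infarct cells had 10 members higher and 5 lower of 24 tested, where 9.38% of all tested genes were called higher and 19.1% lower. Pgam1 (1.06) and Hif1a (1.06) were higher there, and Bnip3 (-1.55) lower.

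Brain pericyte-like cells, 1363 in sham, 402 in the infarct and 996 in peri-infarct, changed in few of these genes. Cluster 0 held 64.0% of the class in sham, cluster 10 56.2% in infarct and cluster 1 66.4% in peri-infarct, all named pericyte. In infarct against sham, 1 of 22 tested members was called, Ankrd37, a HIF target of little-known function. It stood at 27.6 (22.8 to 33.2) CPM in sham, 67.1 (54.0 to 82.4) in the infarct and 34.9 (27.7 to 43.5) in peri-infarct, 2.38-fold higher in infarct (1.82 to 3.23), and infarct was the one library apart. In that comparison 3.45% of all tested genes were called higher and 2.79% lower, so 1 call of 22 lies near the background. The glycolytic median was 0.07 and the hypoxia median -0.12, beside -0.09 for all genes. Ldha had 322, 386 and 381 CPM, Gapdh 669, 746 and 839 and Pgk1 101, 109.9 and 93.8, and none of the 3 was called. Adm, at 115, 199 and 147 CPM, had a log2 ratio of 0.79 in infarct (interval of the CPM ratio 1.48 to 2.01), short of 2-fold, whereas it fell in the fibroblast-like cells of the same library. Hk2, at 1.21, 6.64 and 1.31 CPM, was not tested, and in the infarct lay below the 10.1 CPM that free RNA would give.

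Around the infarct, pericyte-like cells gave 1 call of 23 tested members, Ddit4, at 78.7 CPM in sham, 73.0 in the infarct and 38.4 in peri-infarct (log2 ratio -1.02, interval of the CPM ratio 0.381 to 0.619), where 0.201% of all tested genes were called higher and 0.617% lower. Ddit4 was also called lower in peri-infarct fibroblast-like (-1.35), endothelial-like (-1.04) and arachnoid-like cells (-1.30; there 1.03% of genes were called higher and 3.01% lower) of the brain, so it was lower in 4 classes of 1 library, all set against the same sham library. With a stricter gate, with cells weighted equally, with free RNA subtracted or with a pseudocount of 10 the pericyte-like ratio was -0.995, -0.99, -0.96 and -0.87, short of 2-fold. Between infarct and peri-infarct pericyte-like cells no member of 23 tested was called, where 2.61% of all tested genes were called higher and 1.47% lower. Brain smooth-muscle-like cells could be compared for peri-infarct against sham, and none of 23 tested members was called, where 0.835% of all tested genes were called higher and 2.31% lower. In sham and peri-infarct they held 675 and 800.1 CPM of Gapdh, 271 and 296 of Ldha, and 115 and 77.1 of Ddit4.

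Within the brain infarct library pericyte-like and fibroblast-like cells share handling but not depth, with median UMIs of 2935.5 and 35042. Malat1 made up 1.82% and 0.668% of their UMIs, and the part of depth and nuclear RNA was not tested. Members were called in both directions. Of 26 tested, 10 were higher and 9 lower in pericyte-like cells. There 32.2% of all tested genes were called higher and 12.2% lower, so the higher calls lie near that background. Epas1 (5.88), Ankrd37 (3.88), Adm (3.42) and Ddit4 (2.77) led the log2 ratios in favour of pericyte-like cells, and Hk2 (-3.6) and Hmox1 (-2.93) those in favour of fibroblast-like cells. In the sham library the same comparison gave 6 higher and 3 lower of 23, where 12.9% of all tested genes were called higher and 11.9% lower. There Adm (-1.58) was lower in pericyte-like cells, as were Ndrg1 (-2.74) and Pdk1 (-2.47), and Epas1 (3.57) and Pkm (1.52) were higher. For Adm, then, the class with the higher level was fibroblast-like in sham and pericyte-like in infarct.

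**Figure D3:**
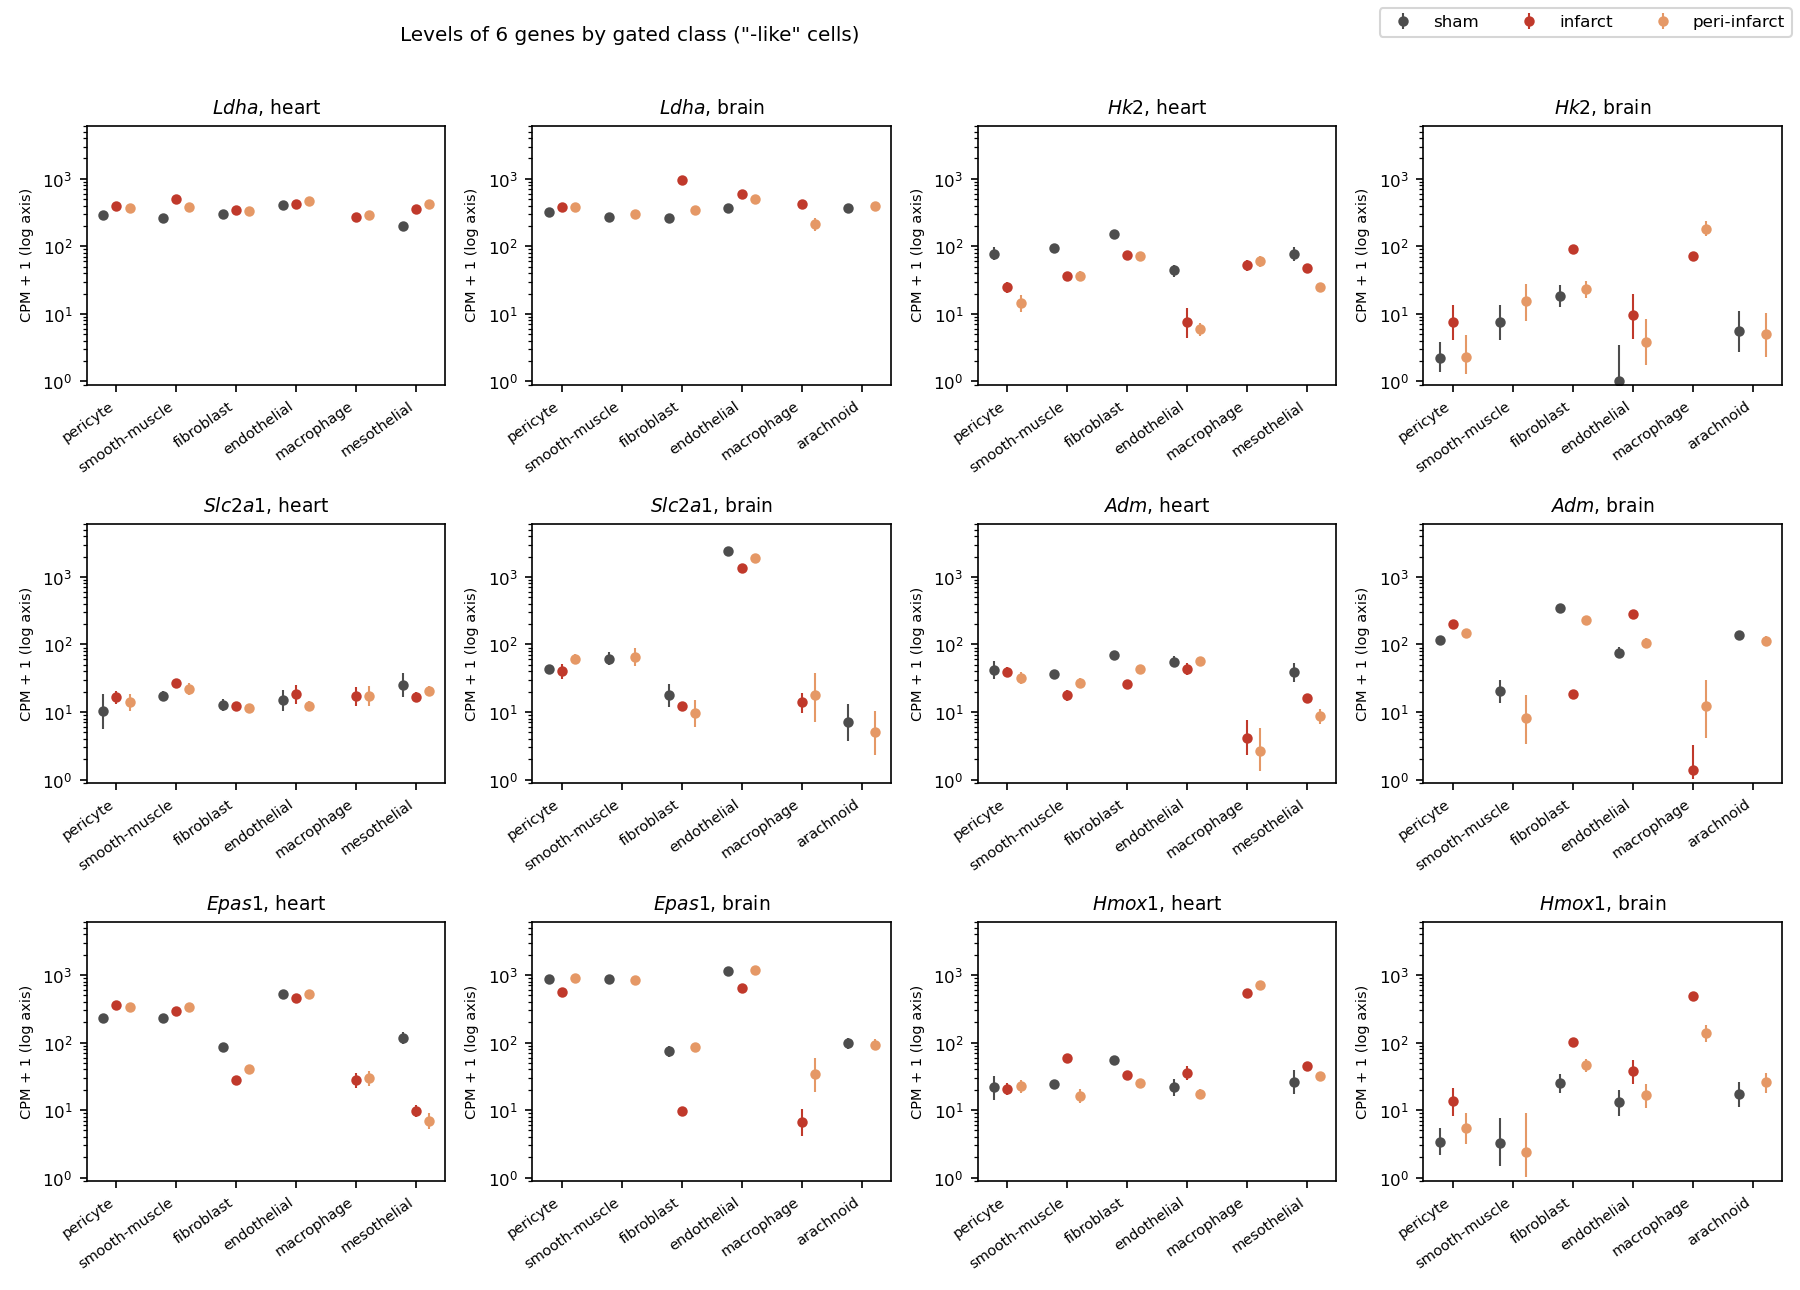
Levels of Ldha, Hk2, Slc2a1, Adm, Epas1 and Hmox1 in each class of the heart and brain libraries, as CPM + 1 on a log axis; points are libraries (grey sham, red infarct, orange peri-infarct) and bars exact Poisson 95% intervals. In brain fibroblast-like cells the infarct point lies above the others for Ldha and Hk2 and below them for Adm and Epas1.

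Brain endothelial-like cells numbered 377 in sham, 95 in the infarct and 386 in peri-infarct. Those of the infarct had 4 members called higher than in sham of 24 tested, where 3.9% of all tested genes were called higher and 8.2% lower. Adm stood at 74.5 CPM in sham, 276 in the infarct and 104 in peri-infarct (3.67-fold higher in infarct, 2.92 to 4.73), and Ankrd37 at 87.9, 179 and 222, higher in infarct (1.02) and peri-infarct (1.33). Hmox1, with 12.1, 36.4 and 15.6 CPM, and Gapdh, with 399, 887 and 471, were the others. Free RNA would give 14.1 CPM of Hmox1 and 204 of Gapdh in the infarct. Col1a1 in this class was at 16.1, 214 and 20.6 CPM in sham, infarct and peri-infarct. The part of other cells' RNA in these calls was not tested. Between infarct and peri-infarct Adm (1.41) and Hmox1 (1.17) were called higher, where 2.92% of all tested genes were called higher and 3.72% lower. Adm was thus high in endothelial-like and low in fibroblast-like cells of the infarct. In peri-infarct against sham 0.555% of all tested genes were called higher and 1.32% lower, and Ddit4, at 269.8, 145 and 131 CPM, was the member called lower.

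Macrophage-like cells, too few in either sham library for a comparison, had high Hmox1, the enzyme that breaks down heme: 547 and 714 CPM in heart infarct and peri-infarct, and 493 and 137 in brain. In the brain, infarct against peri-infarct macrophage-like cells gave 8 members higher and 2 lower of 17 tested, where 3.7% of all tested genes were called higher and 16.6% lower. Pkm (604 against 115 CPM), Pgam1 (598 against 168) and Gapdh (1532 against 532) were higher in the infarct. Hk2 (-1.36) and Pfkfb3 (-1.34) were lower. These cells numbered 135 and 55, with median UMIs of 18644 and 5939. Cluster 20 held 57.0% of the class in the infarct and 5.45% in peri-infarct, where clusters 19 and 24 held 41.8% and 32.7%. Lyz2, a marker used in the gate, stood at 33878 and 9192 CPM. The part of depth and of cell subtype in the result was not tested. In the heart no member of 23 tested was called between the same areas, where 0.816% of all tested genes were called higher and 1.72% lower.

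In the heart, smooth-muscle-like cells (3981 in sham, 630 in infarct, 523 in peri-infarct) had 4 members higher and 2 lower in infarct against sham, of 26 tested, where 6.42% of all tested genes were called higher and 6.1% lower. Pgk1 stood at 73.5 (67.2 to 80.2) CPM in sham, 179 (168 to 190.0) in the infarct and 143 (132 to 155) in peri-infarct, and was 2.41-fold higher in infarct (2.18 to 2.71). Slc16a3 had 23.7, 70.7 and 31.2 CPM, 2.90-fold higher in infarct (2.48 to 3.6). In both, the infarct library was highest, and Slc16a3 was also higher in infarct than in peri-infarct (1.16), as was Hmox1 (1.84), where 1.13% of all tested genes were called higher and 1.13% lower. Hif1a, the HIF-1α subunit, had 105, 219 and 144 CPM and a log2 ratio of 1.05. Adm, at 36.1, 16.7 and 26.0 CPM, was lower (-1.06), where free RNA would give 22.7, 2.63 and 3.21, and Hk2 was lower too (-1.41). Short of 2-fold, Ldha had 258, 494 and 384 CPM (0.94), Gapdh 625, 1030.3 and 924 (0.72) and Mif 199, 397 and 338 (0.99). Thinned cells gave 0.58 for Slc16a3, and with free RNA subtracted Hif1a was at 0.78 and Adm at -0.69. Summed fibroblast markers in these cells went from 17819 CPM in sham to 6434 and 8190.2, and Malat1 from 10.7% to 3.51% and 4.20%, and their part in the result was not tested. The glycolytic median was 0.71 and the hypoxia median 0.37, beside 0.11 for all genes.

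Hmox1 in these cells, at 23.1, 57.5 and 15.4 CPM (1.28 for infarct), did not keep its direction. A UMI of it was found in 2.42% (1.91 to 3.02) of sham, 0.952% (0.35 to 2.06) of infarct and 0.576% (0.119 to 1.67) of peri-infarct cells thinned to 1000 UMIs (exact intervals). Its ratio was -0.02 with each cell thinned to 1000 UMIs, -0.12 with cells weighted equally and -1.85 with cluster-defined cells. The sham class lay to 73.7% in cluster 1 and the injured classes mostly in cluster 12 (68.3% and 70.9%), with median UMIs of 1460, 6525.5 and 6289. In peri-infarct smooth-muscle-like cells Hk2 (-1.37) was the one called member of 24 tested, where 2.61% of all tested genes were called higher and 3.27% lower, and the medians were 0.50, 0.40 and 0.12 for glycolytic, hypoxia and all genes.

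**Figure D4:**
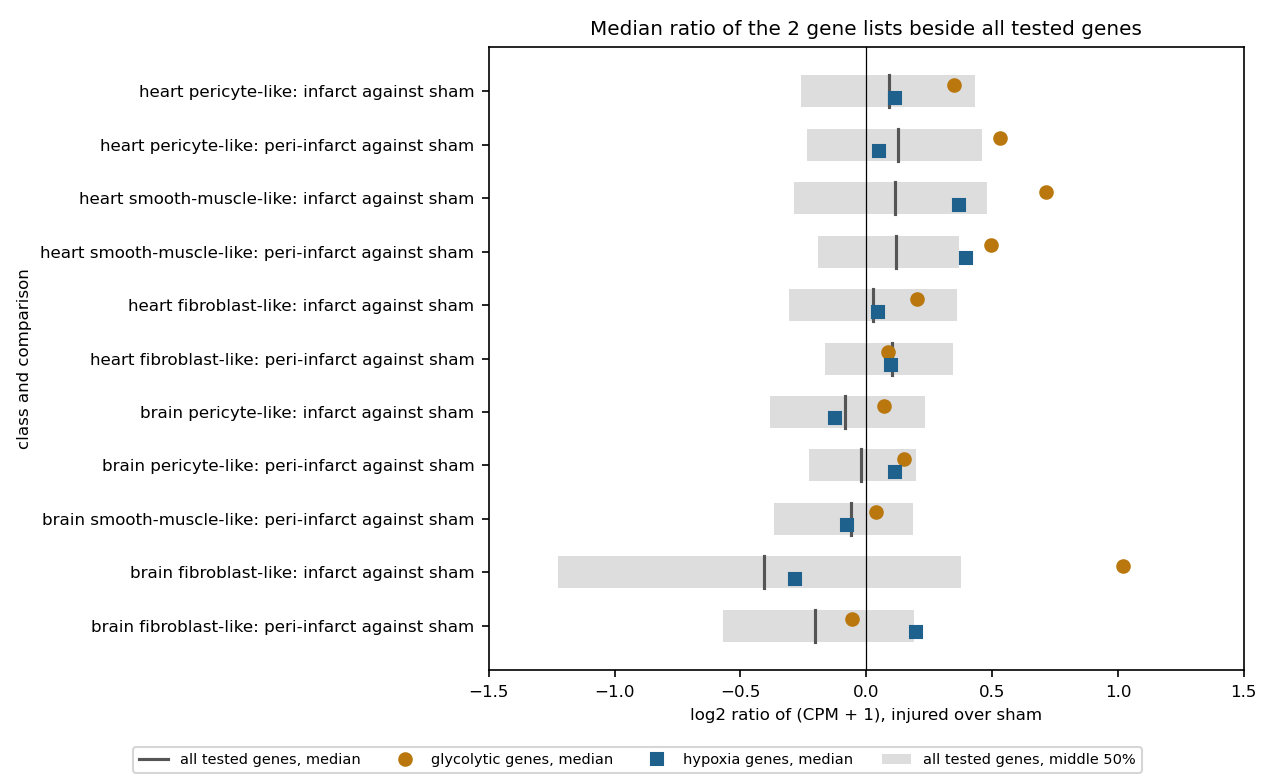
Median log2 ratio of (CPM + 1), injured over sham, of the glycolytic genes (circles) and hypoxia genes (squares) for 11 comparisons, with the median (line) and middle 50% (grey bar) of all tested genes. The glycolytic median lies to the right of the grey bar in brain fibroblast-like infarct cells (1.02) and in heart smooth-muscle-like and peri-infarct pericyte-like cells, and within it elsewhere; the hypoxia median lies outside it in heart peri-infarct smooth-muscle-like and brain peri-infarct fibroblast-like cells.

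Heart fibroblast-like cells, the largest class, gave no call among glycolytic members other than Hk2. Cluster 0 held 63.1% of the class in sham, clusters 2 and 4 held 30.8% and 30.2% in infarct, and clusters 9 and 5 22.5% and 20.5% in peri-infarct. Ldha had 295, 341 and 332 CPM, Gapdh 537, 628 and 658, Pgk1 69.4, 128 and 118, Eno1 115, 107 and 120.0, Pkm 226, 279 and 282 and Slc16a3 27.5, 39.3 and 35.9 in sham, infarct and peri-infarct, and none of these was called. In infarct against sham 1 member was higher and 3 lower of 24 tested, where 6.02% of all tested genes were called higher and 5.92% lower. Hif1a, at 51.6 (46.5 to 57.2) CPM in sham, 116 (113 to 118) in the infarct and 70.4 (68.1 to 72.7) in peri-infarct, was higher (1.15), and just short of 2-fold when cells were thinned (0.99), weighted equally (0.999) or taken from clusters (0.99). Adm, at 69.8, 24.9 and 41.8 CPM, was lower (-1.45), with both injured libraries below sham, as in the brain. Epas1 (-1.66) and Hk2 (-1.04) were also lower, and Hk2 was just short of 2-fold with TMM factors (-0.92), thinned cells (-0.93) and cluster-defined cells (-0.91). The medians were 0.20 for glycolytic, 0.05 for hypoxia and 0.03 for all genes. In peri-infarct Hmox1, at 53.5, 32.0 and 24.4 CPM, was lower (-1.10) together with Epas1 (-1.10) and Hk2 (-1.11), where 2.77% of all tested genes were called higher and 2.75% lower. Between infarct and peri-infarct no member of 24 tested was called, where 1.26% of all tested genes were called higher and 1.15% lower. Median UMIs per cell were 1508 in sham, 11998 in the infarct and 9978 in peri-infarct, and the part of depth in these results was not tested.

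Heart pericyte-like cells (783, 946 and 538) carry the doubt about the sham class given above. In infarct Hk2 alone of 25 tested was called, and was lower (-1.64), where 5.22% of all tested genes were called higher and 6.14% lower. In peri-infarct Pgk1, at 61.0, 114 and 138 CPM in sham, infarct and peri-infarct, was higher (1.17; 0.95 with cells weighted equally), and Hk2 (-2.45) and Ndrg1 (-1.42, 40.4, 23.1 and 14.5 CPM) were lower, where 5.15% of all tested genes were called higher and 6.19% lower. The injured libraries can be set against each other without sham: there Ddit4, at 61.8 CPM in infarct and 28.4 in peri-infarct, was the one call of 23 tested members (1.10), where 0.254% of all tested genes were called higher and 0.365% lower. Glycolytic medians were 0.35 in infarct and 0.53 in peri-infarct, hypoxia medians 0.11 and 0.05, and medians of all genes 0.09 and 0.13.

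Between the mural classes, Adm was higher in pericyte-like than in smooth-muscle-like cells of brain sham (115 against 19.4 CPM, log2 ratio 2.51) and of brain peri-infarct (147 against 7.14, 4.18). Ndrg1 was lower in pericyte-like cells in both (-2.30 and -2.73), as was Pfkp (-1.84 and -1.24), and Pkm was higher in sham (1.03). In these comparisons 14.3% of all tested genes were called higher and 7.32% lower in sham, and 19.6% and 7.17% in peri-infarct. Against endothelial-like cells of brain sham, pericyte-like cells had 1 member higher, Aldoa (1.19), and 5 lower of 23 tested, led by Slc2a1 (-5.79) and Ndrg1 (-4.65), where 14% of all tested genes were called higher and 12.4% lower.

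In the heart infarct Adm was likewise higher in pericyte-like than in smooth-muscle-like cells (1.16), and Slc16a3 (-1.48) and Hmox1 (-1.51) were lower, where 4.43% of all tested genes were called higher and 4.24% lower. In heart peri-infarct Ddit4 (-2.09), Ndrg1 (-1.47) and Hk2 (-1.37) were lower in pericyte-like cells, where 6.53% of all tested genes were called higher and 6.77% lower. Against fibroblast-like cells, pericyte-like cells of the heart infarct had 2 members higher and 2 lower of 24 tested, where 8.85% of all tested genes were called higher and 8.01% lower, with Epas1 (3.73) highest and Hk2 (-1.58) lowest. In heart peri-infarct these were 6 and 2 of 24, where 8.74% of all tested genes were called higher and 8.55% lower, again with Epas1 (3.06) highest and Hk2 (-2.31) lowest.

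Mesothelial-like cells, which line the heart surface (476, 446 and 278 cells), had more glycolytic calls than the other heart classes. The class lay to 96.0% in the unassigned cluster 8 in sham, and to 73.3% and 88.5% in the mesothelial cluster 14 in infarct and peri-infarct. In peri-infarct against sham 10 members were higher and 3 lower of 25 tested, where 8.07% of all tested genes were called higher and 11.6% lower, and in infarct 4 and 3 of 24, where 8.46% of all tested genes were called higher and 12.7% lower. Gapdh stood at 481 CPM in sham, 1038 in the infarct and 1147 in peri-infarct, Slc16a3 at 31.6, 98.6 and 109.8 and Pgam1 at 100.2, 333 and 373, with all 3 called higher in both injured libraries. Egln3, the prolyl hydroxylase PHD3 and itself a HIF target, had 28.5, 57.4 and 85.9 CPM, more than in any other heart class of the same library, and was 2.95-fold higher in peri-infarct (2.05 to 4.61). Adm was lower in both (-1.28 and -2.16). The glycolytic medians were 0.86 in infarct and 1.06 in peri-infarct, beside -0.05 and -0.02 for all genes. Median UMIs per cell were 1499.5, 18445 and 20580, and the part of depth was not tested. Heart endothelial-like cells lay to 76.1% in the unassigned cluster 3 in sham and to 95.9% and 97.6% in endothelial clusters in infarct and peri-infarct, and their summed fibroblast markers went from 13858 CPM to 3741 and 2615. In them Ankrd37, at 30.1, 62.1 and 61.9 CPM, was called higher in infarct (1.02) and peri-infarct (1.02), and Hk2 lower; there 4.33% of all tested genes were called higher and 5.24% lower in infarct, and 4.73% and 6.19% in peri-infarct. Between infarct and peri-infarct, Hmox1 was higher in infarct endothelial-like cells (1.02), where 0.99% of all tested genes were called higher and 0.208% lower, and no member of 23 tested was called in mesothelial-like cells, where 0.332% of all tested genes were called higher and 0.73% lower.

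Hk2 was called lower in both injured heart libraries in the pericyte-like, smooth-muscle-like, fibroblast-like and endothelial-like classes, all set against 1 sham library. Its levels in sham, infarct and peri-infarct were 77.0, 24.0 and 13.3 CPM in pericyte-like, 94.6, 35 and 35.9 in smooth-muscle-like, 152, 73.4 and 69.9 in fibroblast-like and 43.0, 6.46 and 4.91 in endothelial-like cells. The level that free RNA would give was 49.7, 7.08 and 4.36 CPM in those libraries. Endothelial-like cells stood at or below that level in sham and infarct, so their Hk2 cannot be told from background there. Fibroblast-like cells stood above it in all 3 libraries. Of the UMIs of both hexokinases, Hk2 made up 79.7% (77.5 to 81.8) in sham, 74.7% (73.7 to 75.7) in the infarct and 70.0% (68.7 to 71.2) in peri-infarct in heart fibroblast-like cells (exact Clopper-Pearson 95% intervals), and 63.3% (60.3 to 66.2) in sham, 37.7% (33.6 to 42.0) in the infarct and 34.1% (29.7 to 38.7) in peri-infarct in smooth-muscle-like cells. In brain fibroblast-like cells it made up 34.2% (23.9 to 45.7) in sham, 82.9% (81.8 to 84.0) in the infarct and 43.2% (33.0 to 53.7) in peri-infarct, so there the infarct cells carried mostly Hk2. Brain pericyte-like cells carried mostly Hk1, at 68.3, 45.0 and 55.9 CPM, with an Hk2 share of 1.74% (0.568 to 4.02) in sham, 12.9% (6.05 to 23.0) in the infarct and 2.29% (0.475 to 6.55) in peri-infarct. That infarct share rests on 9 Hk2 UMIs, a level below the 10.1 CPM that free RNA would give. In heart sham free RNA was put at 48.9%, and its part in the heart Hk2 shares was not tested.

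The balance of lactate dehydrogenase subunits moved as well. Ldhb, the subunit common in oxidative tissue, gave 46.1% (42.4 to 49.7) in sham, 10.9% (10.6 to 11.2) in the infarct and 37.6% (34.6 to 40.6) in peri-infarct of Ldha and Ldhb UMIs in brain fibroblast-like cells. In heart fibroblast-like cells it gave 23.0% (21.5 to 24.7) in sham, 7.77% (7.46 to 8.10) in the infarct and 9.73% (9.32 to 10.2) in peri-infarct, and in heart smooth-muscle-like cells 38.5% (36.8 to 40.3) in sham, 17.2% (16.0 to 18.5) in the infarct and 26.4% (24.6 to 28.3) in peri-infarct. In these 3 classes the share was lowest in infarct, with intervals apart from sham. Free RNA was put at 48.9% in heart sham, where pericyte-like and smooth-muscle-like cells held shares of 41.7% and 38.5%. The part of free RNA in the lower infarct shares was not tested. Brain pericyte-like cells had 38.1% (36.0 to 40.2) in sham, 39.6% (36.3 to 42.9) in the infarct and 39.0% (36.4 to 41.6) in peri-infarct, with overlapping intervals, and heart pericyte-like cells 41.7% (37.5 to 46.0) in sham, 36.0% (34.2 to 37.8) in the infarct and 43.6% (41.4 to 45.7) in peri-infarct.

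Turning to the HIF subunits, Hif1a was found in every class and Epas1 separated the classes. Hif1a ranged from 31.8 to 219 CPM. In brain pericyte-like cells Epas1 stood at 876 (848 to 905) CPM in sham, 559 (519.8 to 600.2) in the infarct and 912 (873 to 952) in peri-infarct, and Hif1a at 159, 133 and 135. Heart pericyte-like cells had 228, 363 and 336 CPM of Epas1 and 80.7, 123 and 113 of Hif1a. Endothelial-like cells were also high in Epas1, with 1152, 638 and 1173 in brain and 526, 449 and 514 in heart. As a share of Epas1 and Hif1a UMIs, Epas1 made up 84.6% (83.5 to 85.7) in sham, 80.7% (78.1 to 83.2) in the infarct and 87.1% (85.7 to 88.4) in peri-infarct for pericyte-like cells of the brain, and 73.9% (68.8 to 78.5) in sham, 74.8% (72.9 to 76.6) in the infarct and 74.9% (72.6 to 77.1) in peri-infarct in heart pericyte-like cells. The heart pericyte-like shares overlapped in their intervals, and in neither organ was Epas1 called in pericyte-like cells.

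In fibroblast-like cells Epas1 was low and lower in infarct: 72.7, 8.54 and 83.6 CPM in brain and 85.6, 26.5 and 39.3 in heart, for sham, infarct and peri-infarct. Its share of the pair was 43.1% (37.0 to 49.3) in sham, 6.63% (5.98 to 7.32) in the infarct and 59.5% (53.2 to 65.5) in peri-infarct in brain, and 62.4% (59.3 to 65.4) in sham, 18.6% (17.9 to 19.4) in the infarct and 35.8% (34.6 to 37.1) in peri-infarct in heart. The free RNA of each library would give 136, 4.26 and 82.3 CPM in brain and 96.2, 8.07 and 14.1 in heart. In both sham libraries that is above the fibroblast-like level, and so too high for this gene. Subtracting free RNA therefore left no Epas1 in sham fibroblast-like cells and no usable ratio, so the lower Epas1 of fibroblast-like cells cannot be told apart from less free RNA of other cells. Mesothelial-like cells, with 116, 8.76 and 5.88 CPM, lie near the same free RNA levels. Macrophage-like cells had Epas1 shares of 20.9% (16.3 to 26.1) in heart infarct and 5.88% (3.25 to 9.67) in brain infarct.

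**Figure D5:**
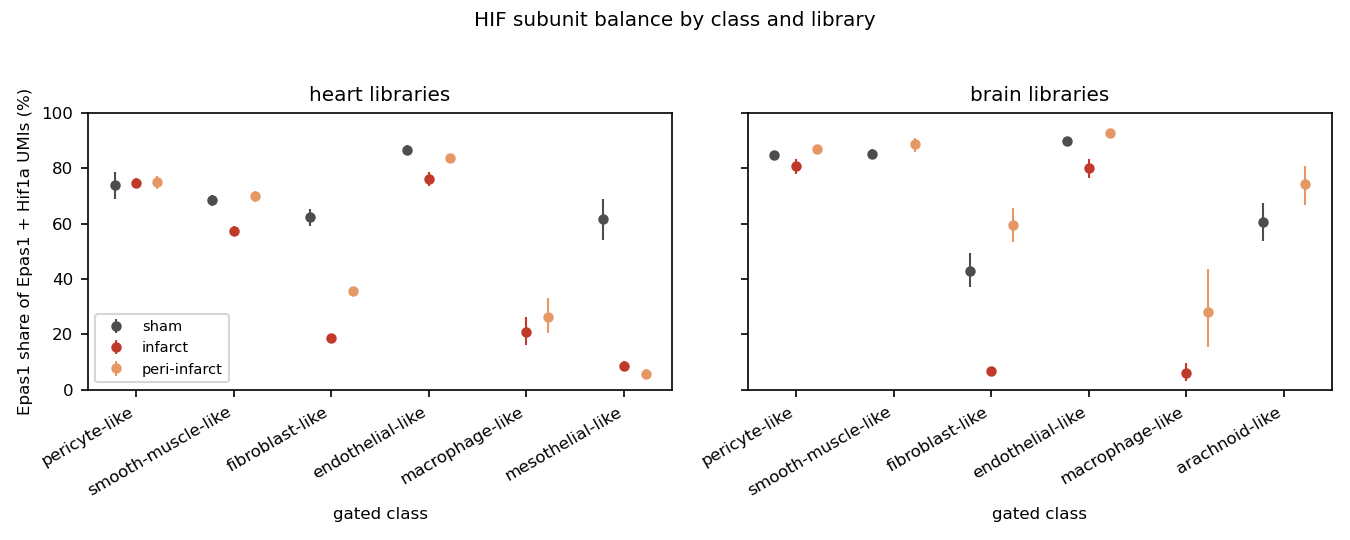
Share of Epas1 among the UMIs of Epas1 and Hif1a (percent) by class, heart on the left and brain on the right; points are libraries and bars exact Clopper-Pearson 95% intervals. Pericyte-like points lie between 73.9% and 87.1%, and the fibroblast-like infarct points at 18.6% in heart and 6.63% in brain.

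Among the enzymes that mark HIF for destruction, Egln1 (PHD2) was the main form, from 40.5 to 221 CPM, with no call in an injured against sham comparison of any class. Egln3 was scarce in mural cells, at 4.69, 15.6 and 21.5 CPM in heart pericyte-like and 4.07, 10.6 and 2.84 in heart smooth-muscle-like cells of sham, infarct and peri-infarct, and reached 53.3 in arachnoid-like cells of brain sham. As a share of both, Egln3 went in mesothelial-like cells from 21.3% (14.5 to 29.4) in sham to 48.5% (45.5 to 51.5) in infarct and 56.8% (53.7 to 59.9) in peri-infarct. Of the remaining targets, Higd1a, a mitochondrial protein induced by hypoxia, ranged from 68.7 to 331 CPM, and Ero1l, an oxidase of protein folding, from 11.2 to 64.6. Neither was called in pericyte-like, smooth-muscle-like or fibroblast-like cells of either organ against sham. Car9, a surface carbonic anhydrase often used as a hypoxia marker in tumours, was nearly undetected: 252 UMIs in all, with a highest level of 10.4 CPM in brain infarct macrophage-like cells. Pfkfb3 stayed under the level for a test in those 3 classes, with 7.34, 7.57 and 6.86 CPM in heart and 11, 8.51 and 1.63 in brain fibroblast-like cells.

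Further genes of the same pathways were read from lists of glucose handling (22 genes), pyruvate entry into mitochondria (10), HIF regulation (7), other HIF targets (21) and NRF2 targets (9). In brain pericyte-like cells of the infarct against sham, 0 higher and 0 lower of 9 tested were called among glucose genes, 0 higher and 0 lower of 6 tested among pyruvate genes, 0 higher and 0 lower of 4 tested in HIF regulation, 0 higher and 1 lower of 13 tested among HIF targets and 0 higher and 0 lower of 6 tested among NRF2 targets, beside 3.45% of all tested genes higher and 2.79% lower. P4ha1, a collagen prolyl hydroxylase subunit, went from 199.9 to 95.9 CPM (-1.05). Ldhb (0.35), Bpgm (0.49), Cited2 (0.69) and Dlat (-0.44) were not called.

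Heart fibroblast-like cells of the infarct had 0 higher and 1 lower of 5 tested among glucose genes, 0 higher and 0 lower of 6 tested among pyruvate genes, 0 higher and 0 lower of 3 tested in HIF regulation, 3 higher and 2 lower of 13 tested among HIF targets and 0 higher and 0 lower of 5 tested among NRF2 targets, beside 6.02% of all tested genes higher and 5.92% lower. Angptl4, a secreted inhibitor of lipoprotein lipase, went from 12.7 to 75.9 CPM (2.49), and Plod2, a collagen lysyl hydroxylase, from 62.4 to 254 (2.01). Stc2, a secreted stanniocalcin, was higher too (1.34). Cox4i2, a hypoxia-type cytochrome oxidase subunit, was lower (151 to 19.9 CPM, -2.87), as were Ldhb (-1.59) and Ccng2 (-1.12), a cyclin-like gene. Cox4i2 is also a pericyte gene (pericyte-like cells of that infarct library held 754 CPM), and free RNA in sham was put at 48.9%. The part of free RNA in the lower values of Cox4i2 and Ldhb was not tested.

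In brain fibroblast-like cells of the infarct the same lists gave 1 higher and 1 lower of 7 tested for glucose genes, 0 higher and 0 lower of 7 tested for pyruvate genes, 0 higher and 2 lower of 3 tested for HIF regulation, 3 higher and 3 lower of 10 tested for HIF targets and 0 higher and 2 lower of 7 tested for NRF2 targets. Over all tested genes 11.1% were higher and 30.9% lower, so the lower calls lie near that background. The genes named next were chosen after their values were seen. Angptl4 went from 25.3 to 264 CPM (3.33) and Plod2 from 53.9 to 199.9 (1.87), both in the direction seen in heart fibroblast-like cells. Vegfa, the vessel growth factor and a classic HIF target, went from 206 to 44.7 (-2.18), Mxi1, a MYC antagonist, from 121 to 13.2 (-3.10), and Slc7a11, the cystine importer, from 1529 to 67.2 (-4.49). Bpgm, which makes bisphosphoglycerate, was higher (28.6 to 206 CPM, 2.81), and Slc16a1, the lactate carrier MCT1, lower (86.3 to 24.8 CPM, -1.76). Heart smooth-muscle-like cells of the infarct had 1 higher and 0 lower of 7 tested among glucose genes. They had 1 higher and 0 lower of 10 tested among HIF targets and no call in the other 3 lists. Over all tested genes 6.42% were called higher and 6.1% lower. Ndufa4l2, a mitochondrial HIF target abundant in pericytes, went from 387 to 1068 CPM (1.46). Summed pericyte markers of this class went from 2317 to 4139 CPM, and 8.41% of its infarct cells lay in the pericyte cluster 6. The part of pericyte RNA in the Ndufa4l2 value was not tested.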

How the data were processed

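The deposited values are unscaled UMI counts for each gene in each barcode. The authors used Cell Ranger 3.0.2, Seurat 3 and the build mm10, per the submitters' processing notes. Further filters are not given in the sources used here. Barcodes with at least 500 genes and at most 10% mitochondrial UMIs were kept. A per-cell gate on marker genes (at least 3 markers, score of at least 0.08, lead of 1.5 over the next type) named the classes, and cells scoring 0.2 in more than 1 lineage were removed as likely doublets (0.193 to 2.71% per library). The score rule was set after the counts were seen. UMIs were summed per class and library and scaled to CPM, with exact Poisson 95% intervals. Calls needed a 2-fold ratio of (CPM + 1), with a pseudocount of 1 CPM, and a counting interval off 1. Intervals cover counting error only. No count test was run, as each group is 1 library. edgeR 4.0.16 gave the TMM factors of an alternative, and numpy 2.4.6, scipy 1.17.1, pandas 2.3.3, scikit-learn 1.9.0 and python-igraph 0.11.9 served the rest. Calls were tried on simulated counts drawn with counting error alone. That check cannot show how often calls arise between single libraries without a true difference. The members and gene lists were chosen with earlier results of these data known. Every member called in an injured pericyte-like, smooth-muscle-like or fibroblast-like class is given by level, and genes of the further pathway lists were named by their ratios in brain pericyte-like or heart fibroblast-like infarct cells, up to 5 a list. A gene of these lists was left out and is not reported here. The closing section gives the effect of stricter gates, other filters, scalings and pseudocounts, thinning and free RNA subtraction.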

Additional observations from a re-analysis of the deposited data

Results flagged for a closer look

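Hk2, hexokinase 2, had opposite directions in the fibroblast-like cells of the 2 organs under the same contrast. In the heart it went from 152 CPM in sham to 73.4 in the infarct, a log2 ratio of -1.04, just past 2-fold. In the brain it went from 17.5 to 91.3 CPM, a log2 ratio of 2.32. Each organ has 1 library per group, and the difference between the organs was not tested.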

How the results depend on the processing

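Of 38 calls in the injured against sham comparisons of pericyte-like, smooth-muscle-like and fibroblast-like cells, 38 were kept with doublets kept, 37 with at least 200 genes per cell, 35 with at least 1000, 37 with TMM factors, with a mitochondrial limit of 20% or with totals without Malat1, mitochondrial and ribosomal protein genes, 38 with a mean CPM of at least 5, 34 with a stricter gate, 33 without dividing cells, 31 with free RNA subtracted or with cells weighted equally, 30 with a pseudocount of 10, 29 with cells thinned to 1000 UMIs and 24 with a mean CPM of at least 50, where all 14 lost genes fell under that level. Leiden clusters kept 28 of 34. Calls gained numbered 14 with free RNA subtracted, 7 with thinning, 6 with TMM factors or a mean CPM of at least 5, 5 with a stricter gate, 3 with at least 1000 genes or cells weighted equally, 2 with up to 20% mitochondrial UMIs, 1 with Leiden clusters and 0 in the other alternatives. In the values that follow, each change reads from the value reported above to the alternative, and the cause was not tested unless given.

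For heart pericyte-like cells, members higher in infarct went from 0 to 1 with at least 1000 genes, with thinning or with a mean CPM of at least 5, and to 2 with free RNA subtracted. Members higher in peri-infarct went from 1 to 2 with thinning or a mean CPM of at least 5, to 3 with free RNA subtracted or a stricter gate, and to 0 with cells weighted equally, and members lower went from 2 to 1 with at least 1000 genes, thinning or free RNA subtracted and to 0 with a mean CPM of at least 50. Over the settings, 3.48% to 7.16% of all tested genes were called higher in infarct and 4.72% to 8.72% lower. In peri-infarct these shares were 3.2% to 7.87% and 5.02% to 8.43%.

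For heart smooth-muscle-like cells in the infarct, members lower went from 2 to 1 with at least 1000 genes, free RNA subtracted, a mean CPM of at least 50, a pseudocount of 10 or dividing cells left out (an alternative chosen after seeing the data), and members higher from 4 to 2 with a mean CPM of at least 50. Hmox1 there turned from 1.28 to -0.022 with thinning, -0.12 with cells weighted equally and -1.85 with Leiden clusters. In peri-infarct, members higher went from 0 to 1 with thinning or cells weighted equally, and members lower from 1 to 2 with up to 20% mitochondrial UMIs. Over the settings, 4.2% to 9.91% of all tested genes were called higher in infarct and 4.67% to 7.41% lower. In peri-infarct these shares were 1.31% to 4.83% and 2.18% to 5.34%.

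For heart fibroblast-like cells in the infarct, members higher went from 1 to 0 with thinning, cells weighted equally or Leiden clusters, and to 4 with free RNA subtracted. The hypoxia median went from 0.05 to 0.67 with free RNA subtracted and to 0.64 with a mean CPM of at least 50. Epas1 turned from -1.66 to 4.44 in infarct and from -1.10 to 4.84 in peri-infarct with free RNA subtracted, values set by the pseudocount, since that leaves 0 CPM in sham and too little for a test. In peri-infarct, members lower went from 3 to 1 with thinning or a pseudocount of 10, and members higher from 0 to 2 with free RNA subtracted. Over the settings, 4.21% to 7.55% of all tested genes were called higher in infarct and 4.18% to 7.27% lower. In peri-infarct these shares were 1.62% to 3.62% and 1.62% to 3.76%.

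For brain pericyte-like cells, members higher in infarct went from 1 to 2 with free RNA subtracted or a mean CPM of at least 5 and to 0 with a mean CPM of at least 50, and members lower in peri-infarct from 1 to 0 with a stricter gate, cells weighted equally, free RNA subtracted or a pseudocount of 10. Over the settings, 2.63% to 4.78% of all tested genes were called higher in infarct pericyte-like cells and 1.32% to 3.74% lower. In peri-infarct these shares were 0.0861% to 0.902% and 0.402% to 0.962%. For brain smooth-muscle-like cells in peri-infarct, members higher went from 0 to 1 with cells weighted equally, and members lower from 0 to 1 with a mean CPM of at least 5.

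For brain fibroblast-like cells in the infarct, members lower went from 5 to 8 with thinning and to 3 with a mean CPM of at least 50. The medians with TMM factors were 1.77 for glycolytic and 0.48 for hypoxia members, and the hypoxia median was 0.30 with free RNA subtracted and 0.32 with a mean CPM of at least 50. With free RNA subtracted Epas1 turned from -2.95 to 2.55, again against 0 CPM in sham, and with Leiden clusters Pfkp turned from 1.02 to -0.23. In peri-infarct, members higher went from 1 to 0 with thinning, a mean CPM of at least 50, a pseudocount of 10, Leiden clusters or at least 200 genes, and to 2 with free RNA subtracted or TMM factors, and members lower from 2 to 1 with thinning or a mean CPM of at least 50.

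With TMM factors the shares of all genes called higher and lower were 31% and 12.3% in brain fibroblast-like infarct cells, 3.85% and 3.92% in their peri-infarct cells, 1.11% and 1.67% in brain peri-infarct smooth-muscle-like cells, 1.89% and 3.85% in heart peri-infarct smooth-muscle-like cells and 7.55% and 4.68% in heart fibroblast-like infarct cells. Leiden clusters held too few heart sham pericyte-like cells for a value, and 9 brain infarct smooth-muscle-like cells allowed no comparison. No paired analysis was possible because each group has 1 library. Depth per cell limits genes near 20 CPM, and the level of 1 library per group has no replicate spread.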

Other observations

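The brain infarct library held 9 smooth-muscle-like cells with 246066 UMIs in all, too few for a comparison. Their summed fibroblast markers were at 9392 CPM, beside 11997 CPM of smooth muscle markers, and Col1a1 was at 3723 CPM. Of the 9 cells, 3 lay near the cut of the gate, so the class name is doubtful for these cells. In them Gapdh stood at 2467 CPM (2274 to 2671), Ldha at 943 CPM (825 to 1072), Pkm at 1101 CPM (974 to 1241) and Mif at 1053 CPM (928 to 1189). Hmox1 stood at 784 CPM (678 to 903) and Slc2a1 at 44.7 CPM (22.3 to 80.0). No UMI of Adm was found, and a count of 0 allows up to 14.99 CPM by the exact interval. These intervals cover counting error only, and 9 cells do not represent the class.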
